A study of Homo sapiens with 6 samples.

Results

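The genes described here are 43 symbols whose products build epithelial cell junctions or keep cells in the epithelial state. They were taken by symbol from the 24462 symbols in the count files, and all 43 were present, each on 1 row. The list holds 6 adherens junction and adhesion genes, 2 splicing regulators, 6 transcription factors, 12 tight junction genes, 11 desmosome and plakin genes, 3 genes of a membrane protease and its inhibitors, and 3 polarity and trafficking genes. RNA-seq was performed on PC3, an established prostate carcinoma line that grows without androgen, transfected for 72 h with 80 nM of non-targeting siRNA (si-Control, n = 3) or of siRNA against CITED2 (si-CITED2, n = 3). CITED2 is a coregulator that binds p300/CBP, and the study asked how its knockdown changes expression and the epithelial–mesenchymal transition (EMT) of these cells.

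Epithelial cells hold together through 3 kinds of junction. In adherens junctions, cadherins of neighbouring cells bind each other and are tied to actin by catenins, in tight junctions claudins and occludin seal the gap between cells, and in desmosomes desmogleins and desmocollins are tied to keratin by plakophilins and plakins. In EMT, repressors such as SNAI1 and ZEB1 bind E-box sequences and silence CDH1 and other epithelial genes, while ESRP1 and ESRP2 keep transcripts in their epithelial splice forms and OVOL and GRHL factors hold the repressors back.

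The target and the cell line were checked first. Normalized CITED2 mRNA was 858.6, 892.0 and 773.0 in the si-Control cultures and 1084.3, 921.1 and 983.9 in the si-CITED2 cultures, so the mRNA was not lower where the siRNA was given (log2 fold change 0.24, SE 0.0744, adjusted p = 0.0363). Here and below, adjusted p-values are those of the quasi-likelihood F-test in edgeR, corrected as Benjamini and Hochberg proposed. The CITED2 call was lost without TMM scaling (0.22, adjusted p = 0.0518 from edgeR) and without si-Control replicates 1 or 3 or si-CITED2 replicates 1 or 3 (0.17 to 0.25). The study checked its knockdown on the protein by immunoblot, which these files do not measure, so the cultures are named below by their label and every direction rests on that label. The luminal keratins KRT8 and KRT18 were high, with at least 11026.5 normalized counts in every culture, and KLK3, which PC3 is known to lack, had at most 2 counts. Against the usual description of PC3, which carries a deletion in the alpha-catenin gene CTNNA1, CTNNA1 was counted at 10739 to 12896 normalized counts in every culture. Counts per symbol do not tell which exons were read, and the identity of the line was not tested.

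Library totals ranged from 19508925 to 28936374 counts, and the 3 counts taken as the smallest detectable number equal 0.104 to 0.154 counts per 1000000 counts of the library (CPM). Markers of endothelial, fibroblast and leukocyte cells were low. The 5 endothelial markers summed to at most 22.5 normalized counts in any culture, and none had enough counts for the fit. The 8 fibroblast markers summed to 132.4 to 136.9 in si-Control and to 171.0 to 186.3 in si-CITED2, mostly COL1A1, the only one of them in the fit, which did not pass (adjusted p = 0.105 from edgeR). The other 7 were too low for the fit. Among them DCN and LUM had at most 2 counts, while PDGFRA had 1, 1 and 2 counts in si-Control, against 11, 8 and 7 in the si-CITED2 cultures, without overlap. The 7 leukocyte markers summed to 45.1 to 57.7 and to 81.2 to 92.0, with the difference of the means mainly in LYZ (18.9 against 34.6) and CSF1R (6.8 against 25.2), and LYZ, the only one in the fit, did not pass (adjusted p = 0.107 from edgeR). PTPRC, shared by all leukocytes, had at most 2 counts. The 5 keratinocyte differentiation markers were not low as a sum, at 989.2 to 1069.2 and 970.2 to 1203.0, mostly from KRT10 (mean 771.0 in si-Control and 828.8 in si-CITED2). Their part in the results below was not tested. In bulk RNA, fewer cells that make a transcript and less of it per cell cannot be told apart, and all values come from 1 line after transient transfection.

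Per length of exon, the list ran from abundant to barely detected genes. At the top in si-Control stood SPINT2 (97.7 CPM per kilobase), DSG2 (87.0), EPCAM (59.1) and DSP (52.0), and CDH1 had 28.0. At the bottom, 5 members had too few counts to enter the fit. CDH2, the N-cadherin that many mesenchymal cells make in place of E-cadherin, had 2 to 5 counts in every culture. OVOL1 had 1 to 6 counts, and GRHL2, a factor that maintains CDH1 and claudin expression, had 0 to 3. RAB25, a small GTPase of epithelial recycling endosomes, had 8 counts in the 3 si-Control cultures together and 1 in the 3 si-CITED2 cultures. The ETS factor EHF had 11, 15 and 6 counts in si-Control, against 3, 4 and 4 in the si-CITED2 cultures. With no filter on low counts none of these 5 passed an adjusted p of 0.05, the smallest being 0.18 for EHF (edgeR).

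**Figure D1:**
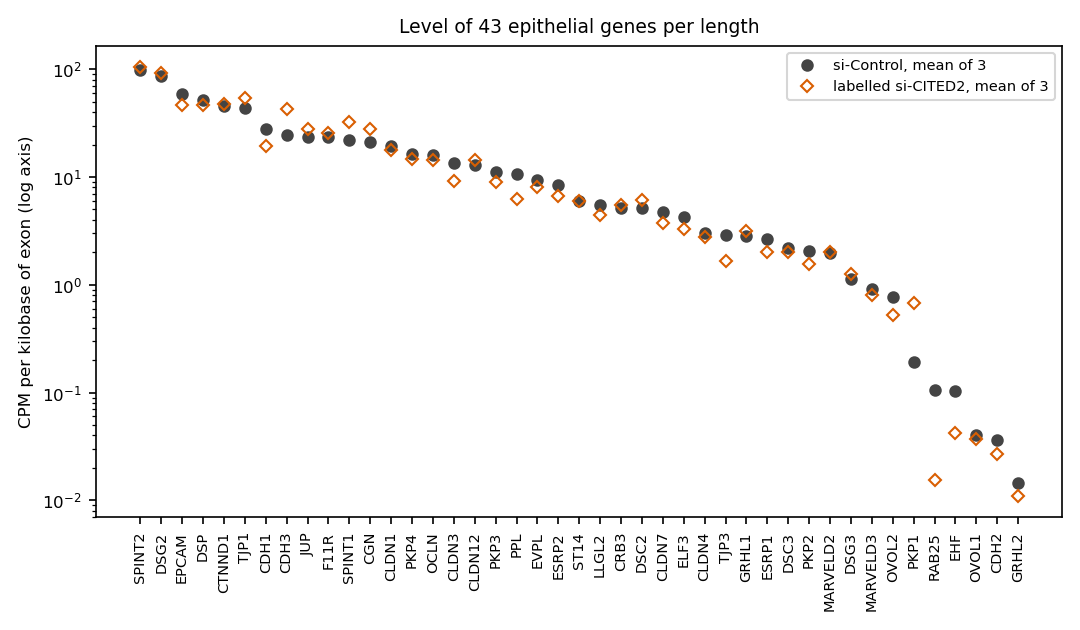
Mean level of each of the 43 genes, in CPM per kilobase of exon on a log axis, for si-Control (filled circles) and the cultures labelled si-CITED2 (open diamonds), ordered by the si-Control mean. The 5 genes at the right, from RAB25 to GRHL2, had at most 15 counts in any culture.

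Of the 38 members in the fit, 12 fell and 7 rose in the cultures labelled si-CITED2 at an adjusted p under 0.05, and 19 did not pass. Over all 16314 fitted genes the same rule called 17.4%, with 9.36% higher and 8.09% lower, against 31.6% of the fitted members lower and 18.4% higher. Genes with more counts are called more often. Among genes with a mean of at least 100 normalized counts, 21.6% were called (11.2% higher and 10.5% lower), against 18 of 35 members at that level, 12 of them lower. The median log2 fold change was -0.13 over the members and -0.00 over all fitted genes, and the median absolute value was 0.25 and 0.14. The 3 values of one group lay wholly above those of the other for 26 fitted members (11 higher and 15 lower in si-CITED2), where 32.5% of all fitted genes did so. Both directions occurred within the cadherins, within the tight junction and within the desmosome. The members were chosen with results of these data known, so no test was made over the list. An exact permutation of 3 against 3 cultures cannot go below p = 0.1, so the test of each gene is the fit across all genes.

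**Figure D2:**
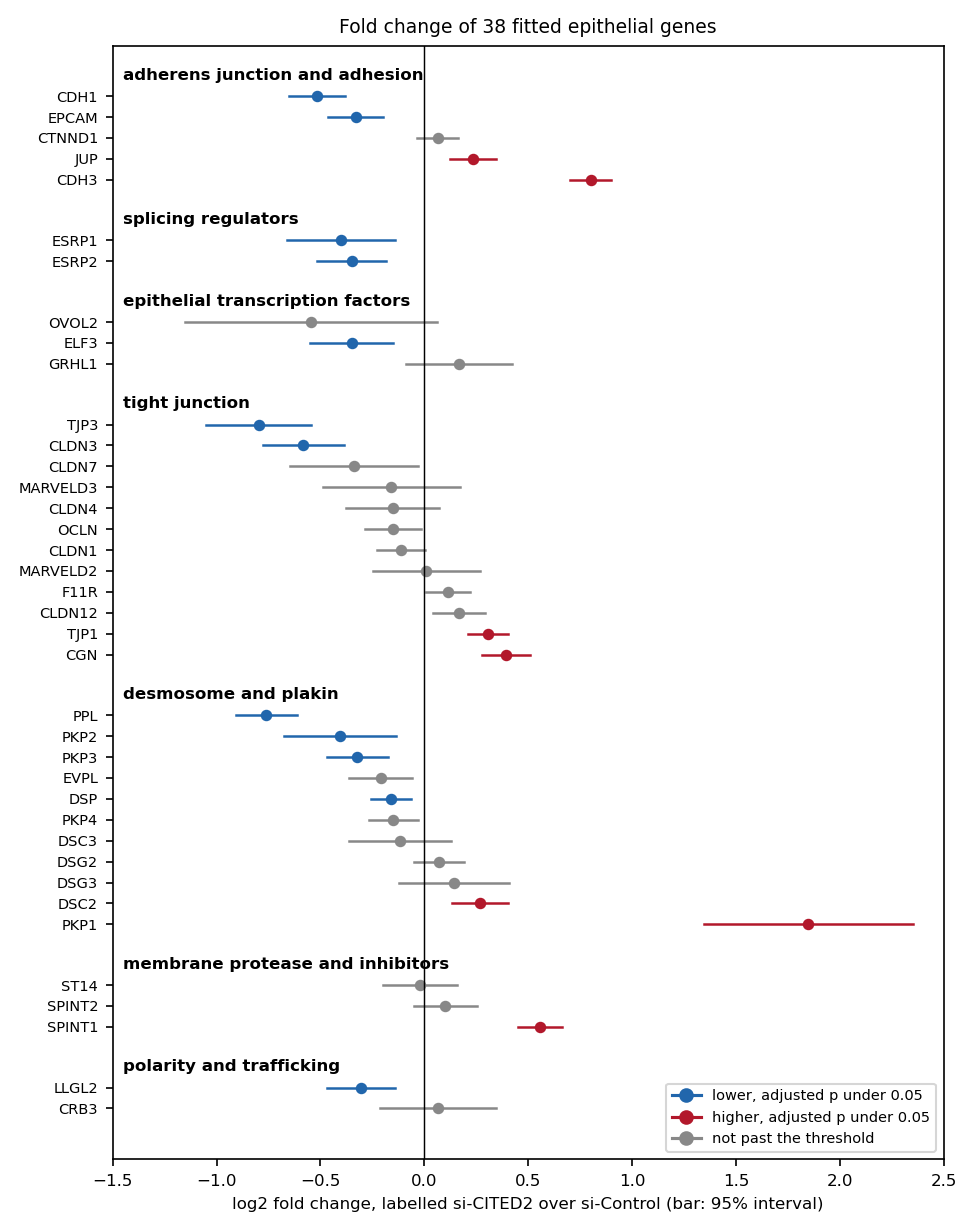
Log2 fold change of the 38 fitted genes, labelled si-CITED2 over si-Control, grouped by role, with bars for the 95% interval from the edgeR fit (n = 3 per group). Blue points passed an adjusted p of 0.05 as lower, red points as higher and grey points did not pass, and every group with 5 or more genes holds both directions.

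The classical cadherins moved in opposite directions. CDH1 encodes E-cadherin, the main cadherin of epithelial adherens junctions, and CDH3 encodes P-cadherin, which is typical of basal epithelial cells. CDH1 was at 2955.2, 3440.1 and 3460.5 normalized counts in si-Control and at 2212.4, 2391.6 and 2276.7 in si-CITED2. Every si-CITED2 culture lay below every si-Control culture, and the mean fell from 3285.3 ± 286.0 to 2293.5 ± 90.8 (SD, n = 3), a log2 fold change of -0.52 (SE 0.0627, adjusted p = 1.67e-05 from edgeR). CDH3 was at 2941.8, 2864.5 and 2936.9 normalized counts in si-Control and at 4980.9, 5161.5 and 5096.7 in si-CITED2. The groups were far apart relative to their spread, and the mean rose from 2914.4 ± 43.3 to 5079.7 ± 91.5 (SD, n = 3), a log2 fold change of 0.80 (SE 0.0468, adjusted p = 2.47e-09 from edgeR).

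CDH1 and CDH3 are neighbours on chromosome 16 with no coding gene between them. The ratio of CDH3 to CDH1 counts within a library needs no scaling between libraries. It was 0.995, 0.833 and 0.849 in si-Control, against 2.25, 2.16 and 2.24 in si-CITED2. The mean ratio was 2.48 times higher in si-CITED2, and the mean levels of CDH3 and CDH1 per kilobase went from 24.6 against 28.0 CPM to 42.9 against 19.6 CPM. This ratio was chosen after its values were seen. The ratio of CDH2 to CDH1, which is the change usually read as a cadherin switch in EMT, was 0.00114 ± 0.00023 in si-Control and 0.00122 ± 0.00033 in si-CITED2 (SD, n = 3), less apart than the replicates of a group.

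Of the other adherens junction and adhesion members in the fit, JUP rose, EPCAM fell and CTNND1 did not pass. JUP, or plakoglobin, a catenin of both adherens junctions and desmosomes, rose from 2061.7 ± 13.4 to 2424.5 ± 108.2 normalized counts (SD, n = 3), a log2 fold change of 0.23 (adjusted p = 0.0048 from edgeR). CTNND1, the p120 catenin that keeps cadherins at the surface, did not pass (log2 fold change 0.06, 95% interval -0.03 to 0.16). EPCAM, a surface adhesion protein of epithelial cells, was at 2941.8, 2787.2 and 2663.9 normalized counts in si-Control and at 2106.8, 2133.6 and 2434.4 in si-CITED2. All 3 si-CITED2 values were lower, a log2 fold change of -0.33 (SE 0.0620, adjusted p = 0.0011 from edgeR).

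Both splicing regulators fell. ESRP1 and ESRP2 are RNA-binding proteins that favour epithelial exons in transcripts such as those of CD44, FGFR2 and CTNND1. ESRP2, the more abundant of the pair per kilobase (8.48 against 2.67 CPM in si-Control), was at 791.0, 743.9 and 763.6 normalized counts in si-Control and at 653.3, 535.1 and 619.0 in si-CITED2, with no overlap (log2 fold change -0.35, SE 0.0783, adjusted p = 0.00463 from edgeR). ESRP1 was at 216.0, 232.7 and 280.0 and at 191.9, 174.9 and 183.0 (log2 fold change -0.40, SE 0.122, adjusted p = 0.0314 from edgeR). The si-Control replicate 3 stood highest for ESRP1, and without it the log2 fold change was -0.30 with an adjusted p of 0.151 (edgeR). The ESRP1 call was also lost without si-Control replicate 2 and without si-CITED2 replicates 2 or 3 (-0.43 to -0.37).

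Counts per gene cannot show which exons were used. Of 10 genes with exons known to be regulated by ESRP proteins, 2 rose (CD44 and MAP3K7), 1 fell (SCRIB) and 7 did not pass. These calls made 30.0% of the 10, where 17.4% of all fitted genes were called. CD44, a hyaluronan receptor with variable exons, rose from 4358.0 ± 99.8 to 8102.7 ± 214.2 normalized counts (SD, n = 3), a log2 fold change of 0.90 (adjusted p = 6.14e-10 from edgeR). MAP3K7 lost its call in 5 of the 6 fits without 1 culture.

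Among the transcription factors, ELF3 was the only fitted member that passed, of 3. ELF3 is an ETS factor restricted to epithelia. It was at 649.7, 628.0 and 561.2 normalized counts in si-Control and at 440.8, 450.0 and 555.5 in si-CITED2 (log2 fold change -0.35, SE 0.0938, adjusted p = 0.0157 from edgeR). The groups were separated by a narrow gap, and the call was lost in 4 of the 6 fits without 1 culture (without si-Control replicates 1 or 2 or si-CITED2 replicates 1 or 2, -0.33 to -0.29). OVOL2, a repressor of ZEB1, was at 24.2 to 30.6 in si-Control and at 18.2 to 20.8 in si-CITED2, and with so few counts its 95% interval ran from -1.15 to 0.06. GRHL1 overlapped between the groups (log2 fold change 0.17, 95% interval -0.09 to 0.42).

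In the tight junction, 2 genes fell, 2 rose and 8 of 12 did not pass. TJP3, or ZO-3, and TJP1, or ZO-1, are related scaffold proteins under the junction membrane, and they went opposite ways. TJP3 was at 267.5, 243.1 and 222.4 normalized counts in si-Control and at 144.5, 142.4 and 135.9 in si-CITED2, and it fell by 42.5% (log2 fold change -0.80, SE 0.119, adjusted p = 0.000148 from edgeR). TJP1 was at 10049.4, 9792.3 and 10071.9 and at 12640.6, 12365.9 and 12022.0, a log2 fold change of 0.31 (SE 0.0453, adjusted p = 0.000126 from edgeR). TJP1 was far more abundant in both groups (43.7 against 2.90 CPM per kilobase in si-Control). CGN, or cingulin, which links ZO proteins to actomyosin, rose from 2545.7 ± 168.4 to 3342.1 ± 28.6 normalized counts (log2 fold change 0.39, adjusted p = 6.75e-05 from edgeR).

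The claudins, the strand-forming proteins of the junction, differed in size of change. CLDN3 was at 403.5, 421.1 and 401.2 normalized counts in si-Control and at 293.9, 263.7 and 262.9 in si-CITED2, with a wide gap between the groups (log2 fold change -0.58, SE 0.0914, adjusted p = 0.000236 from edgeR). Its neighbour on chromosome 7, CLDN4, overlapped between the groups (-0.15, 95% interval -0.38 to 0.07). CLDN7 (-0.34, interval -0.65 to -0.03), CLDN1 (-0.11, interval -0.23 to 0.00) and CLDN12 (0.17, interval 0.04 to 0.29) did not pass after adjustment. Nor did OCLN, or occludin (-0.15), F11R, or junctional adhesion molecule A (0.12), MARVELD2 (0.01) and MARVELD3 (-0.16).

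CLDN3 and CGN are shown as a pair of tight junction genes that moved in opposite directions, with the 250 bases before their RefSeq start (GRCh38.p14). The pair was chosen after the values were seen. Its windows hold no sequence of annotated transcripts of the same gene, unlike the windows of many members. The capitals mark GGGCGG or its complement CCGCCC, the GC box letters, which may overlap each other.
CLDN3, chr7:73770271-73770520, minus strand: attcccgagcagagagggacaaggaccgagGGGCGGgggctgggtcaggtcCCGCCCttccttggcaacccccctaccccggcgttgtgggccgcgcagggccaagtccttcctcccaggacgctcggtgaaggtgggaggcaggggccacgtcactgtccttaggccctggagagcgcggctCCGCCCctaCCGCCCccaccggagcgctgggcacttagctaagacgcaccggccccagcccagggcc
CGN, chr1:151511137-151511386, plus strand: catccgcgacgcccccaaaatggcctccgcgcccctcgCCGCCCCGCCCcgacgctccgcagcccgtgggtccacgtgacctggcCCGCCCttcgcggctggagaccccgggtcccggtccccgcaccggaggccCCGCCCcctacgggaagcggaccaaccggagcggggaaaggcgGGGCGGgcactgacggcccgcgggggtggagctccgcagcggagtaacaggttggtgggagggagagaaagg
CLDN3 holds these letters 4 times and CGN 5 times. They were present in 24 of 37 windows of the members, or 64.9%, and in 42.6% of all 35116 windows of the RefSeq table.

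The E-box letters CAGGTG, searched on both strands, were in 13 of the 37 member windows, or 35.1%, and in 17.5% of all windows. Neither CLDN3 nor CGN held them. Of the members with a window, 3 of the 4 that fell (DSP, ELF3 and TJP3) and 4 of the 6 that rose (DSC2, JUP, SPINT1 and TJP1) held them in at least 1 window, so the letters were found on both sides. Most of these windows are not purely upstream sequence. The ELF3 window with the letters lay wholly within annotated transcripts of the gene. Those of JUP, TJP3, DSP, DSC2 and SPINT1 did so in part, and that of TJP1 not at all. A match is a description of letters and not of binding, and the start used in these cells was not measured. The table matched 25 of the 43 members. The 18 without an entry were CDH1, CDH3, CTNND1, EPCAM, ESRP1, ESRP2, OVOL1, OVOL2, GRHL2, F11R, MARVELD3, PKP2, PKP3, PPL, EVPL, ST14, SPINT2 and LLGL2.

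In the desmosome and its plakins, 4 genes fell, 2 rose and 5 of 11 did not pass. Plakins and plakophilins tie desmosomal cadherins to keratin filaments. PPL, or periplakin, was at 1445.2, 1607.0 and 1601.4 normalized counts in si-Control and at 998.1, 846.6 and 907.2 in si-CITED2, giving a log2 fold change of -0.76 (SE 0.0696, adjusted p = 6.16e-07 from edgeR). It had the smallest p of the 12 members that fell. Its partner EVPL, or envoplakin, overlapped slightly (1412.1 to 1603.7 against 1201.9 to 1417.1, log2 fold change -0.21, adjusted p = 0.0568 from edgeR), and it passed without TMM, with no filter on low counts and without si-CITED2 replicate 1. DSP, or desmoplakin, the main plakin of the desmosome, fell from 12005.9 ± 375.6 to 10746.4 ± 125.8 (SD, n = 3), a log2 fold change of -0.16 whose call (adjusted p = 0.0228 from edgeR) was lost without si-Control replicates 2 or 3 or si-CITED2 replicates 2 or 3 (-0.17 to -0.14).

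The plakophilins split. PKP1, which is typical of stratified epithelia, was at 18.7, 26.6 and 28.2 normalized counts in si-Control and at 66.8, 101.3 and 94.2 in si-CITED2. It had the largest fold change of the fitted members, 3.6-fold higher (log2 fold change 1.85, SE 0.237, adjusted p = 3.06e-05 from edgeR), from a low level. PKP3 fell from 738.3 ± 27.9 to 591.4 ± 21.1 normalized counts (SD, n = 3), a log2 fold change of -0.32 (adjusted p = 0.00334 from edgeR). PKP2, which is also found in heart desmosomes, was at 212.4, 229.5 and 204.7 and at 153.0, 147.1 and 189.5 (log2 fold change -0.41, adjusted p = 0.0366 from edgeR), and its call was lost when any 1 culture other than si-CITED2 replicate 3 was left out (-0.44 to -0.33) and with a replicate block (adjusted p = 0.0509 from edgeR). PKP4, which also binds classical cadherins, did not pass (-0.15, 95% interval -0.27 to -0.03).

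Of the desmosomal cadherins, which lie in 1 cluster on chromosome 18, DSC2 passed and 3 did not. DSC2, or desmocollin 2, was at 1525.1, 1487.8 and 1514.3 normalized counts in si-Control and at 1972.0, 1818.3 and 1662.0 in si-CITED2 (log2 fold change 0.27, SE 0.0627, adjusted p = 0.00647 from edgeR). The neighbouring DSC3 overlapped between the groups (-0.12, 95% interval -0.36 to 0.13). DSG2, the desmoglein of simple epithelia and the junction gene with the most CPM per kilobase among the 43, also overlapped (0.07, 95% interval -0.05 to 0.19). DSG3 was at 137.7 to 157.0 in si-Control and at 158.9 to 171.2 in si-CITED2 and did not pass (0.14, 95% interval -0.12 to 0.41).

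The serine protease ST14, or matriptase, and its inhibitors SPINT1 and SPINT2 act at the surface of epithelial cells. SPINT1 was at 1608.7, 1576.4 and 1584.9 normalized counts in si-Control and at 2336.3, 2314.2 and 2374.2 in si-CITED2. Its replicates were tight and the groups far apart (log2 fold change 0.56, SE 0.0505, adjusted p = 5.47e-07 from edgeR). SPINT2 (0.10, 95% interval -0.05 to 0.25) and ST14 (-0.02, 95% interval -0.20 to 0.16) overlapped between the groups. Of the polarity genes, LLGL2, which marks the basolateral side, was at 489.7, 494.3 and 513.0 and at 404.4, 406.1 and 401.0 (log2 fold change -0.30, adjusted p = 0.0113 from edgeR). CRB3, a small apical membrane protein, overlapped (0.07, 95% interval -0.21 to 0.34).

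**Figure D3:**
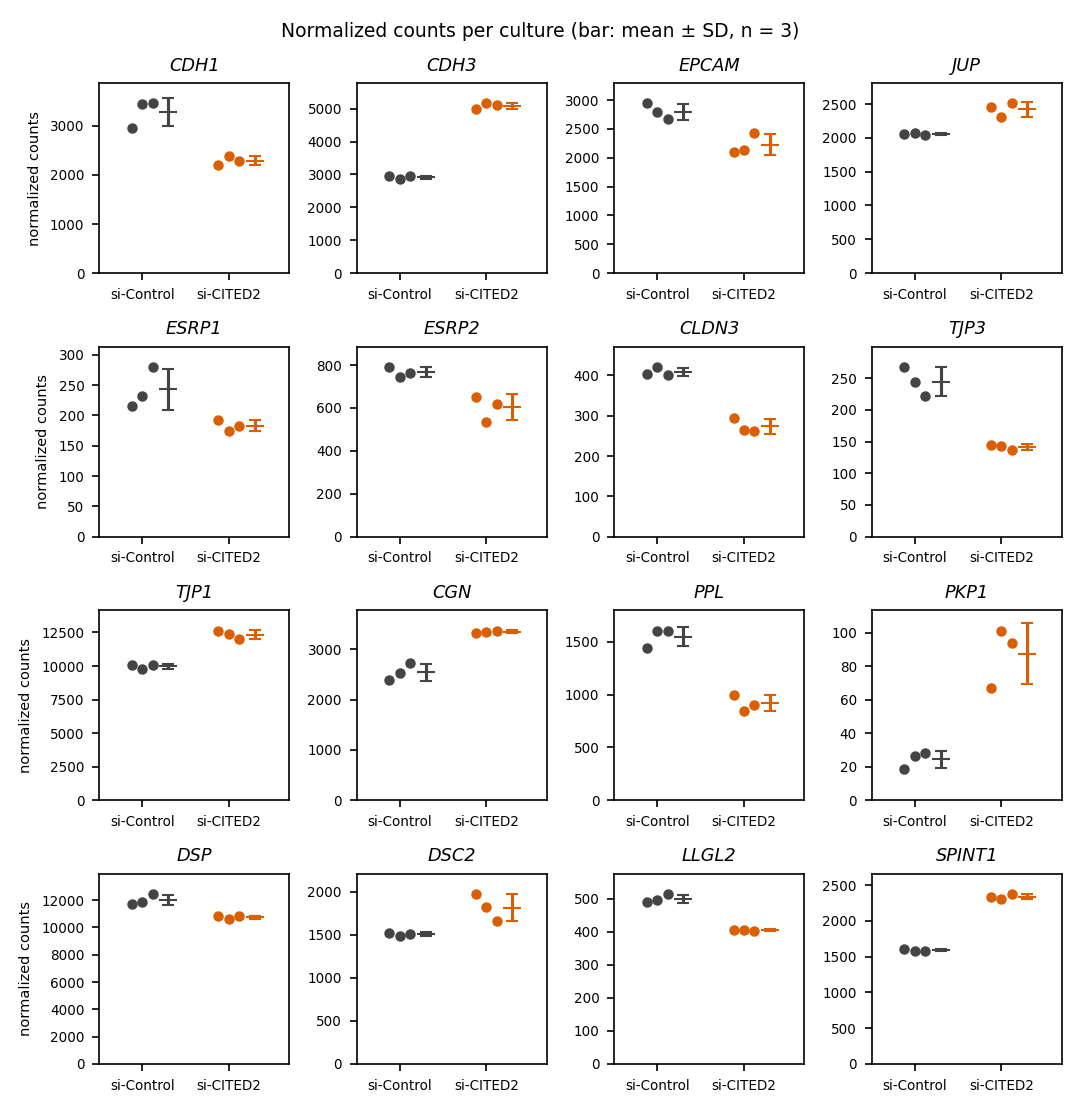
Normalized counts of 16 genes that passed the threshold, in each of the 3 si-Control (grey) and 3 si-CITED2 labelled (orange) cultures, with the mean and SD beside the points and each axis starting at 0. CDH3, SPINT1, TJP1 and CGN lay higher and CDH1, CLDN3, TJP3 and PPL lower in all 3 cultures labelled si-CITED2.

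Further genes of the same structures were counted from lists of 103 genes outside the 43, of which 82 were in the fit, 15 rose and 12 fell. These calls made 32.9% of the fitted genes of the lists, with 18.3% higher and 14.6% lower. Over all fitted genes 17.4% were called (9.36% higher and 8.09% lower), and 21.6% of those with a mean of at least 100 normalized counts. Of 16 other adherens junction and nectin genes, 11 were in the fit and 27.3% of these were called, as 3 rose and 0 fell. They were the actin linker VCL, or vinculin (log2 fold change 0.40, adjusted p = 6.25e-06), and the catenins CTNNB1 (0.33, adjusted p = 0.0143) and CTNNA1 (0.20, adjusted p = 0.0061, all from edgeR). CTNNB1 overlapped between the groups and lost its call without si-Control replicate 1 and without si-CITED2 replicates 2 or 3 (0.24 to 0.43 over the 6 fits without 1 culture). Of 18 other tight junction genes, 13 were in the fit and 23.1% of these were called, close to the share of well-counted genes, as 1 rose and 2 fell. The falls were CLDN11 (-0.90) and CXADR (-0.25), the last with its call lost in 4 of the 6 fits without 1 culture.

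The other desmosome and hemidesmosome genes gave 3 rises and 2 falls among 8 in the fit, or 62.5% called, against 17.4% of all fitted genes. CD151 (0.38), ITGB4 (0.33) and ITGA6 (0.16), which belong to the hemidesmosome that anchors cells to the basement membrane, rose, while its components COL17A1 (-0.41) and PLEC (-0.21) fell. ITGA6 and PLEC each kept their call in 2 of the 6 fits without 1 culture. Of 16 fitted polarity complex genes, 0 rose and 5 fell, led by PARD6A (-0.77), PARD6B (-0.38) and SCRIB (-0.28), where 8.09% of all fitted genes were called lower. The other falls were DLG1 and MPP5 (both -0.19), named after their values were seen, and both lost their call without si-CITED2 replicate 2, DLG1 also without si-CITED2 replicate 3. Of 14 other fitted epithelial factors and splicing partners, 3 rose (among them FOXA1 0.35 and MBNL2 0.34) and 3 fell (TFCP2L1 -0.34, KLF5 -0.23 and MBNL1 -0.16). These calls made 42.9% of the 14 genes. The calls of KLF5, MBNL1 and TFCP2L1 were each lost in at least 3 of the 6 fits without 1 culture.

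Among 14 EMT factors and mesenchymal genes, 11 were in the fit, 3 rose and 0 fell, where 9.36% of all fitted genes were called higher and 8.09% lower. SNAI1, a repressor of CDH1, was at 86.2, 66.0 and 75.3 normalized counts in si-Control and at 154.2, 134.7 and 147.9 in si-CITED2, without overlap (log2 fold change 0.94, SE 0.153, adjusted p = 0.000326 from edgeR). From its RNA-seq, the study reports stronger enrichment of metastasis-related gene sets in control than in CITED2 knockdown cells. It also states that CITED2 raised mesenchymal and lowered epithelial markers in PC3 and DU145. This rests on immunoblots and on RT-qPCR of SNAIL and E-CAD mRNA. Proteins and gene sets were not examined here. By the label, SNAI1 here was higher and CDH1 lower (-0.52) in si-CITED2, the reverse of the direction stated for the RT-qPCR. The reason was not tested. ZEB1 rose from 857.4 ± 18.6 to 1019.5 ± 59.3 (log2 fold change 0.25, adjusted p = 0.0112 from edgeR, with its call lost without si-Control replicate 2 and without si-CITED2 replicate 3) and the intermediate filament gene VIM from 30003.2 ± 894.8 to 35872.5 ± 908.7 (0.26, adjusted p = 0.000655 from edgeR). SNAI2 was at 17.8 to 25.9 and 28.5 to 48.6 and did not pass (0.83, adjusted p = 0.0704 from edgeR). Nor did S100A4, named after its values were seen, at 84.5 to 95.3 and 36.4 to 77.8 (-0.59, adjusted p = 0.0778 from edgeR), which passed as lower without si-CITED2 replicate 3. ZEB2 did not pass (0.06), and TWIST1 was at most 7.7 normalized counts. The luminal keratins KRT8 (0.24) and KRT18 (0.18, with its call lost without si-Control replicates 2 or 3 and without si-CITED2 replicate 1) rose at the same threshold.

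**Figure D4:**
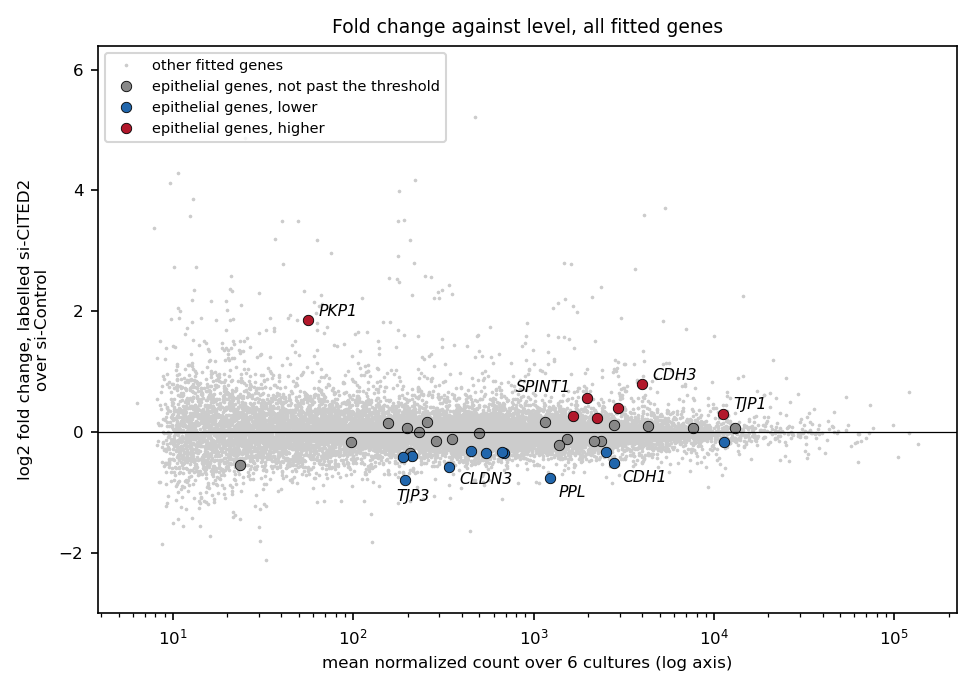
Log2 fold change, labelled si-CITED2 over si-Control, against the mean normalized count on a log axis, for the 16314 fitted genes (light grey) and the 38 fitted epithelial genes (circles, blue lower, red higher, dark grey not past the threshold). The 12 lower genes reach down to -0.80 for TJP3, and PKP1 stands apart among the 7 higher genes at 1.85.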

How the data were processed

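PC3 libraries were prepared with a SMARTer mRNA-seq kit, and the legend of the RNA-seq experiment in the study states 3 independent repeats. The authors deposited raw counts per gene symbol, 1 table per culture, with no normalization. The submitters' processing notes name TopHat, edgeR and hg19. The counting program, the annotation, strand use and filters are not given in the sources used here, so how reads shared by overlapping genes were counted is unknown.

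Groups and replicates came from the sample titles. Where a symbol had several rows, that with the highest total was used. Genes passing filterByExpr (16314) were normalized by TMM and tested with edgeR 4.0.16 in R 4.3.3 by the quasi-likelihood test without a block. Benjamini-Hochberg adjustment ran over all fitted genes. The SE came from the F statistic and the 95% interval from that SE with the degrees of freedom of the fit. Normalized counts are on the scale of the mean effective library size (23554403). Levels per kilobase used merged GENCODE 29 basic exons (GRCh38), not the annotation behind the counts, and are approximate. Depth limits the precision of the 5 members under the filter, and floors of 3 counts cover counting error only. No library was a repeat deposit of another (chi-square over its degrees of freedom at least 2.80 between replicates). The test was tried on simulated data. Alternatives were library size alone, upper-quartile factors, DESeq2 1.42.0, other filters on low counts, a replicate block, summed rows and leaving out each culture.

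RefSeq windows of GRCh38.p14 were searched over 250 bases before each start, and none of their coordinates was joined to the hg19 counts. Windows that overlap annotated transcripts of the same gene were kept in the motif counts. The background of genes with at least 100 normalized counts and the CDH3 to CDH1 ratio were added after seeing the data. The CLDN3 and CGN pair was also chosen then. The 43 genes and all lists were chosen with earlier results of these data known. By the rule for named genes, every member was named, with at most 3 rises and 3 falls of each other list and a few fixed EMT and catenin genes. DLG1, MPP5 and S100A4 fall outside this rule and were named after their values were seen. The keratins, KLK3, COL1A1, DCN, LUM, PDGFRA, LYZ, CSF1R and PTPRC were named as checks. Some genes of the other lists are counted but not reported by name here.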

Additional observations from a re-analysis of the deposited data

How the results depend on the processing

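All 19 calls of the members were kept with library size alone, upper-quartile factors, DESeq2, both other filters on low counts and summed rows, with 7 higher and 12 or 13 lower. No pairing of the cultures by replicate number was seen (correlation of deviations -0.04, 0.03 and -0.01 for replicates 1, 2 and 3). With 3 cultures per group, such values cannot show that none existed. With the replicate number as a block, 7 members were higher and 11 lower, PKP2 being lost (-0.41, adjusted p = 0.0509 from edgeR), and all fitted genes gave 1405 higher and 1154 lower. In the 6 fits without 1 culture, which have fewer samples, 7 members were higher in each and 8 to 12 lower, and all fitted genes gave 1135 to 1519 higher and 881 to 1328 lower. The calls lost in some of these fits were ESRP1, ELF3, PKP2 and DSP, and the fewest members called lower (8) came without si-Control replicate 2 and without si-CITED2 replicate 2. CLDN7 and EVPL passed without si-CITED2 replicate 1, and OCLN without si-Control replicate 1. The sign changed only for members that passed in no fit. These were MARVELD2 (-0.008 without TMM, -0.048 to 0.132 without 1 culture), DSC3 (-0.215 to 0.033), ST14 (-0.083 to 0.032) and CRB3 (-0.037 to 0.194). The cause was not tested. Without 1 culture the CDH3 to CDH1 ratio moved by less than 1 SD within a group (0.841 to 0.922 in si-Control and 2.20 to 2.25 in si-CITED2). Library size alone shifted the median of all genes to -0.02. Depth limits CDH2, OVOL1, GRHL2, EHF and RAB25, for which a change was not detectable.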
